A study of Mus musculus with 18 samples.

Results

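Ces1d, Smco1, Efnb3, Lgi1 and Cngb3 are 5 heart transcripts that stood at 3.42% to 15.3% of the control mean in mouse hearts labelled Lmna shRNA. These 5 of the 54532 genes in the count table were picked by name, for a large fall in the shRNA hearts or a large difference between hearts given lamin C and hearts given lamin A. They stand outside the main ion channel and sarcomere families. The contrasts of shRNA with control, of lamin with shRNA, and between the lamins therefore chose the genes, and their values are given as a description with no test.

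The study used rAAV9, an adeno-associated viral vector that reaches the heart well, to add lamin A or lamin C to mice in which Lmna was to be knocked down as a model of Lmna dilated cardiomyopathy. RNA came from the apex of hearts of genotype WT, in 18 libraries forming 6 groups of 3. Batch LC held controls, hearts labelled Lmna shRNA (L881) and hearts labelled Lmna shRNA plus lamin C. Batch LA held its own controls, its own Lmna shRNA (L881) hearts and hearts labelled Lmna shRNA plus lamin A. Lamin C and lamin A hearts thus never share a labelled batch, and the labels do not say what a batch stands for. A difference between the lamins cannot be told apart from a difference between batches except through each batch's own controls and shRNA hearts. What the controls received, the ages of the mice, and the promoters and doses of the vectors are not given in the sources used here. No label says that the 3 libraries of a group came from separate animals, so p-values measure only the spread between these libraries.

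Lmna encodes lamins A and C, splice products that form a meshwork under the inner nuclear membrane, and its mutations cause dilated cardiomyopathy with conduction disease. The 5 genes come from unrelated families. Ces1d is a carboxylesterase of the endoplasmic reticulum that hydrolyses esters and stored triacylglycerol and is best known in liver and fat. Smco1 encodes a single-pass membrane protein with coiled-coil domains. Efnb3 encodes ephrin-B3, a membrane-bound ligand of Eph receptor tyrosine kinases known from axon guidance. Lgi1 encodes a secreted protein that bridges ADAM22 and ADAM23 at synapses and is mutated in an inherited epilepsy. Cngb3 is the beta subunit of the cyclic nucleotide-gated channel of cone photoreceptors and is mutated in achromatopsia.

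Libraries held 31418657 to 41259968 counts, so that 3 counts correspond to 0.0622 to 0.108 CPM, which are counts brought to a common library size with TMM, a scaling by the bulk of genes. All 5 genes passed the filter on low counts, together with 17876 genes in all. Lmna itself was not lower in the hearts labelled shRNA. Its log2 difference from control was 0.06 ± 0.08 (SE, n = 3 per group, edgeR quasi-likelihood adjusted p = 0.578) in batch LC and 0.11 ± 0.08 (edgeR adjusted p = 0.258) in batch LA. It was higher by 3.29 ± 0.09 with lamin C and by 2.07 ± 0.08 with lamin A than in the shRNA hearts. The gene count therefore does not check the knockdown label, and "shRNA hearts" below means hearts so labelled. All 10 cardiomyocyte markers (such as Myh6, Tnnt2 and Ryr2) reached 1 CPM in every group.

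Ces1d (ENSMUSG00000056973, mm10, chr8:93166068-93197838, minus strand) was the most abundant of the 5 per length in control hearts. Its deposited FPKM, a value per gene length, was 59.3 ± 10.4 (SD, n = 3) in LC controls. In CPM, the LC controls stood at 166, 148 and 116.5 and the LC shRNA hearts at 5.37, 7.89 and 1.43. With lamin C the libraries stood at 107, 129 and 98.1 CPM. In batch LA, controls stood at 111, 124.5 and 124 CPM, shRNA hearts at 3.40, 6.07 and 5.50, and lamin A hearts at 34.5, 44.2 and 29.4. The lowest control library was thus far above the highest shRNA library in each batch, the lamin A hearts lay between the shRNA and control hearts without overlap, and the lamin C hearts overlapped the controls of both batches. The fitted fall was 29.3-fold in batch LC (log2 -4.87 ± 0.33, SE) and 24-fold in batch LA (log2 -4.59 ± 0.32), the largest of the 5 genes in each batch.

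Smco1 (ENSMUSG00000046345, chr16:32271468-32274781, plus strand) is a short gene with a single annotated transcript. Its FPKM in LC controls was 12.3 ± 1.44 (SD, n = 3). LC controls stood at 20.03, 17.3 and 16 CPM, LC shRNA hearts at 1.54, 2.51 and 0.611, and lamin C hearts at 12.2, 15.7 and 13.6. LA controls stood at 15.1, 17.3 and 17.96 CPM, LA shRNA hearts at 1.53, 1.55 and 1.51, and lamin A hearts at 4.73, 5.96 and 4.62. The LA shRNA libraries held 65 counts each, while the LC shRNA libraries spread from 24 to 94 counts. All lamin C values were below the LC controls, and they overlapped the LA controls. The fall was 11.5-fold in batch LC (log2 -3.52 ± 0.24) and 11-fold in batch LA (log2 -3.45 ± 0.24).

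Efnb3 (ENSMUSG00000003934, chr11:69554092-69560205, minus strand) was the second most abundant per length, with 22.2 ± 1.65 FPKM (SD, n = 3) in LC controls. LC controls stood at 76.3, 73.8 and 66 CPM, shRNA hearts at 7.76, 8.72 and 9.55, and lamin C hearts at 42, 45.5 and 47.2. In batch LA the controls stood at 66.4, 69.9 and 73.7 CPM, the shRNA hearts at 9.20, 6.57 and 9.83, and the lamin A hearts at 10.1, 15.4 and 12.6. Here the lamin C hearts overlapped no control library of either batch. The lowest lamin A heart stood just above the highest LA shRNA heart. The fall was 8.32-fold in batch LC (log2 -3.06 ± 0.13) and 8.19-fold in batch LA (log2 -3.03 ± 0.13).

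Lgi1 (ENSMUSG00000067242, chr19:38264536-38312214, plus strand) was the least abundant per length, with 0.890 ± 0.0722 FPKM (SD, n = 3) in LC controls. LC controls stood at 11.1, 9.44 and 10.45 CPM, shRNA hearts at 0.726, 1.36 and 0.459, and lamin C hearts at 5.995, 7.37 and 6.41. LA controls stood at 7.86, 6.14 and 9.31 CPM, shRNA hearts at 0.897, 0.976 and 0.951, and lamin A hearts at 2.11, 2.46 and 1.44. The shRNA values rest on 18 to 51 counts per library. Control libraries of batch LC were all above those of batch LA, and the lamin C hearts overlapped only the latter. The fall was 12.3-fold in batch LC (log2 -3.62 ± 0.25) and 8.22-fold in batch LA (log2 -3.04 ± 0.25).

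Cngb3 (ENSMUSG00000056494, chr4:19280850-19510623, plus strand) had 1.83 ± 0.389 FPKM (SD, n = 3) in LC controls. LC controls stood at 10.95, 7.51 and 7.98 CPM, shRNA hearts at 0.705, 0.587 and 0.790, and lamin C hearts at 6.69, 6.12 and 4.92. LA controls stood at 7.22, 7.02 and 6.13 CPM, shRNA hearts at 1.37, 0.762 and 0.997, and lamin A hearts at 1.73, 2.08 and 1.47. Its shRNA libraries held 22 to 58 counts. As for Lgi1, the LC controls were all above the LA controls. The fall was 12.6-fold in batch LC (log2 -3.66 ± 0.22) and 6.50-fold in batch LA (log2 -2.70 ± 0.21).

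**Figure D1:**
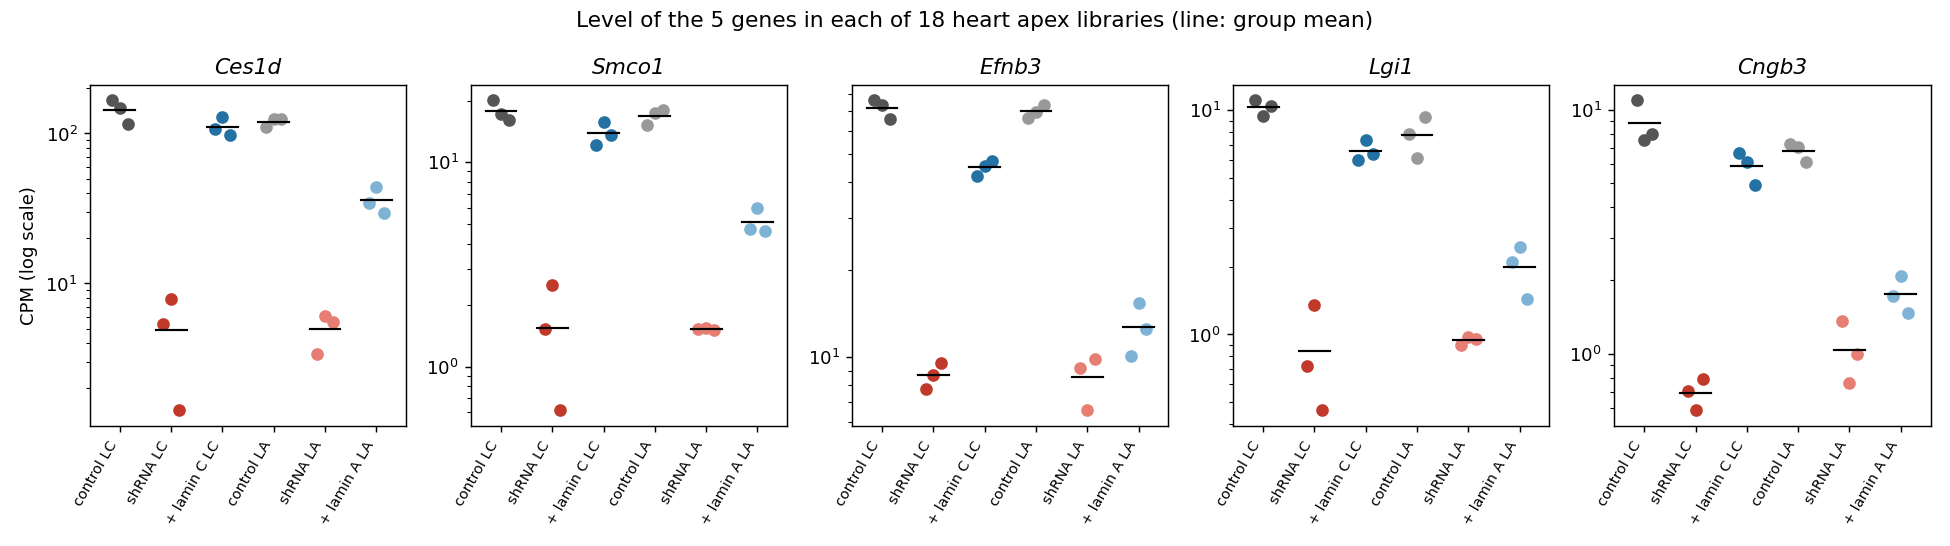
CPM on a log axis for each gene in 18 libraries, by group; points are libraries and lines are group means. Controls and lamin C hearts sit at the top, shRNA hearts at the bottom and lamin A hearts between, with Ces1d falling from above 116 CPM to below 8 CPM in batch LC.

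Every gene had the same order of groups: controls, then lamin C, then lamin A, then shRNA. The neighbours in that order that did overlap were the controls of the 2 batches for Ces1d, Smco1 and Efnb3, the LA controls and lamin C for all but Efnb3, and the shRNA groups of the 2 batches for all 5. The median log2 difference of shRNA from control over the 5 was -3.62 in batch LC and -3.04 in batch LA, against 0.05 over all genes in each batch. In 5 of 5 genes all 3 shRNA libraries lay below all 3 controls of the batch, which held for 30.2% of tested genes in batch LC and 32% in batch LA. These medians and counts follow from how the genes were chosen.

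Replicates of 1 shRNA group did not move together across the 5 genes. The third LC shRNA library was the lowest of its group for Ces1d, Smco1 and Lgi1 and the highest for Efnb3 and Cngb3. The highest LC shRNA library exceeded the lowest 5.54-fold for Ces1d, 4.10-fold for Smco1 and 2.97-fold for Lgi1, but only 1.23-fold for Efnb3 and 1.35-fold for Cngb3. That library also had the lowest share of mitochondrially encoded counts in the group, 12.96% against 14.74% and 15.62%, and the lowest summed cardiomyocyte markers, and the part of either in these values was not tested. Without it the log2 falls in batch LC were -4.45 for Ces1d, -3.16 for Smco1 and -3.34 for Lgi1.

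The batch difference in the fall was a measure the choice did not use directly, though it shares libraries with the contrasts that chose the genes. By edgeR, 0 of the 5 falls differed between batches after adjustment over all genes, 1 of 5 had an unadjusted p under 0.05, and DESeq2 called 0. Of all genes, 0.00559% were called, a single gene. The fall of Cngb3 was larger in batch LC, with a log2 difference of -0.96 ± 0.31 (edgeR adjusted p = 0.676), and that of Lgi1 was at -0.58 ± 0.36 (edgeR adjusted p = 0.828). The other 3 differences were between -0.29 and -0.02 on the log2 scale. Control hearts of the 2 batches likewise gave 0 of 5 calls by edgeR, 1 of 5 with an unadjusted p under 0.05 and 0 by DESeq2, and 0.106% of all genes, 19 genes, were called. That number was 829 without LC control 3, and 640 without the third controls of both batches, which carry consecutive numbers in the labels, set apart from those of the other controls. Of the 5, 0 were called there too. The largest control differences were 0.41 ± 0.21 for Lgi1 (edgeR adjusted p = 0.46) and 0.38 ± 0.18 for Cngb3 (edgeR adjusted p = 0.421), both higher in batch LC.

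In lamin C hearts the 5 genes stood most of the way from the shRNA to the control level, and in lamin A hearts much lower. A difference between the lamins was part of the choice of genes, and each lamin was in a batch of its own. Relative to the mean of the batch's controls, Ces1d stood at 3.42% in LC shRNA hearts and 77.5% in lamin C hearts, but at 4.16% in LA shRNA hearts and 30.1% in lamin A hearts. Smco1 went from 8.73% to 77.9% with lamin C and from 9.10% to 30.4% with lamin A. For Efnb3 the same steps were 12.04% to 62.3% and 12.2% to 18.1%, the smallest step with lamin A of the 5. Lgi1 went from 8.22% to 63.8% and from 12.1% to 25.8%, and Cngb3 from 7.87% to 67.0% and from 15.3% to 25.9%.

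**Figure D2:**
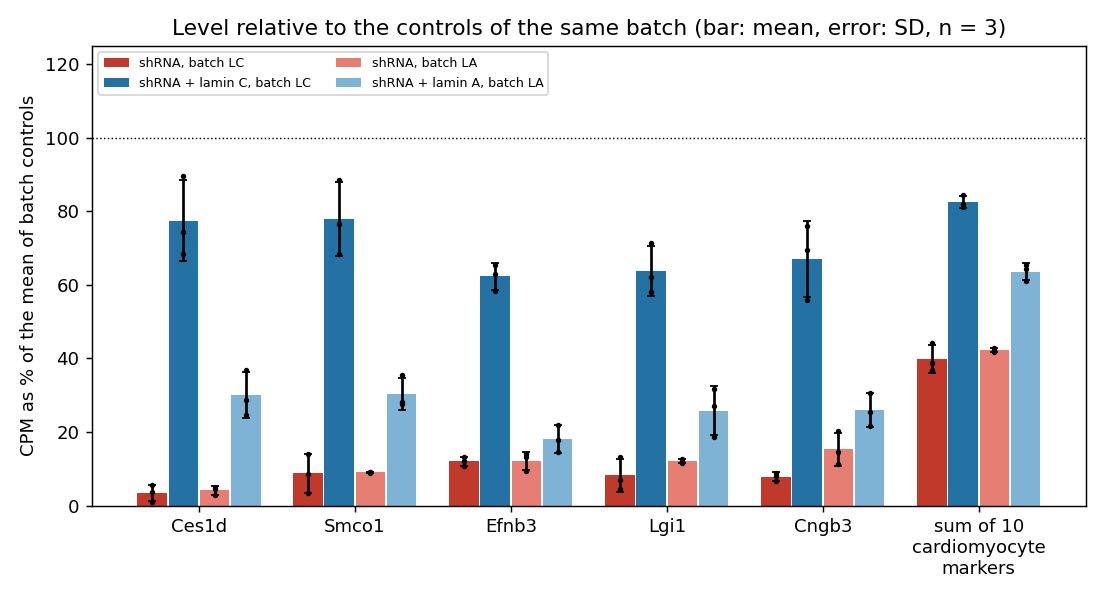
Level of each gene, and of the summed cardiomyocyte markers, as a percent of the mean of the controls of the same batch (bars: mean of 3 libraries, error bars: SD, points: libraries, dotted line: 100%). The 5 genes fall to between 3.42% and 15.3% of control with shRNA, where the marker sum falls to 39.9% and 42.3%, and stand higher with lamin C than with lamin A.

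On the log2 scale, lamin C raised the genes above the LC shRNA level by 4.51 ± 0.32 for Ces1d, 3.17 ± 0.24 for Smco1, 2.37 ± 0.13 for Efnb3, 2.97 ± 0.25 for Lgi1 and 3.08 ± 0.22 for Cngb3. Lamin A raised them above the LA shRNA level by 2.85 ± 0.31, 1.74 ± 0.25, 0.57 ± 0.14, 1.08 ± 0.27 and 0.75 ± 0.23, in the same order. The difference between the lamins' effects ran from 1.43 ± 0.36 for Smco1 to 2.33 ± 0.32 for Cngb3. All 3 lamin libraries lay above all 3 shRNA libraries in 5 of 5 genes with lamin C, as in 28.5% of all genes, and in 5 of 5 with lamin A, as in 23.2%. These contrasts chose the genes, so nothing is read from their counts. Lamin C and lamin A hearts also differed in Lmna itself, which stood at 1060 to 1370 CPM with lamin C and 501 to 556 CPM with lamin A, and the part of that difference was not tested.

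What remained lower than control is given with p-values, though in libraries that also chose the genes. High controls against shRNA, or a difference between the lamins, were part of that choice. The counts and p-values for lamin C against control are therefore no independent support. With lamin C, 3 of 5 genes were still below the LC controls by edgeR, where 6.18% of all genes were called lower. Efnb3 was lower by 0.68 ± 0.12 on the log2 scale (1.60-fold, adjusted p = 0.000784, lower in 3 of 3 libraries). Lgi1 was lower by 0.65 ± 0.21 (1.56-fold, edgeR adjusted p = 0.0406) and Cngb3 by 0.58 ± 0.18 (1.49-fold, edgeR adjusted p = 0.0319). In 4 of 5 genes, all but Ces1d, all 3 lamin C libraries lay below all 3 LC controls, which held for 14.6% of all genes. Ces1d (log2 -0.37 ± 0.26, edgeR adjusted p = 0.394) and Smco1 (log2 -0.36 ± 0.20, edgeR adjusted p = 0.252) did not pass, which does not show that they reached the control level. The calls of Lgi1 and Cngb3 were lost without LC control 1 (edgeR adjusted p = 0.123 and 0.194) or without lamin C library 3 (0.116 and 0.149), and under scaling by library totals. Lgi1 also lost its call without LC control 2 (edgeR adjusted p = 0.0549), LC control 3 (0.0754) or lamin C library 1 (0.147), and Cngb3 without lamin C library 2 (0.0551).

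With lamin A, 5 of 5 genes were still below the LA controls by edgeR, where 22.1% of all genes were called lower. The genes were chosen in these same libraries for high controls against shRNA or for a difference between the lamins, so this count and the p-values restate part of that choice and are no independent support. Efnb3 had the largest remaining difference, a log2 value of -2.46 ± 0.13 (5.51-fold, adjusted p = 6.16e-11). Ces1d was 3.33-fold lower (log2 -1.73 ± 0.27, edgeR adjusted p = 3.37e-05) and Smco1 3.29-fold (log2 -1.72 ± 0.21, edgeR adjusted p = 1.88e-06). Lgi1 was 3.89-fold lower (log2 -1.96 ± 0.23, edgeR adjusted p = 9.41e-07) and Cngb3 3.86-fold (log2 -1.95 ± 0.20, edgeR adjusted p = 1.41e-07). In each of the 5 genes, all 3 lamin A libraries lay below all 3 LA controls, which held for 26.9% of all tested genes. The median over the 5 was -1.95 with lamin A and -0.58 with lamin C, against 0.02 and 0.00 over all genes.

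**Figure D3:**
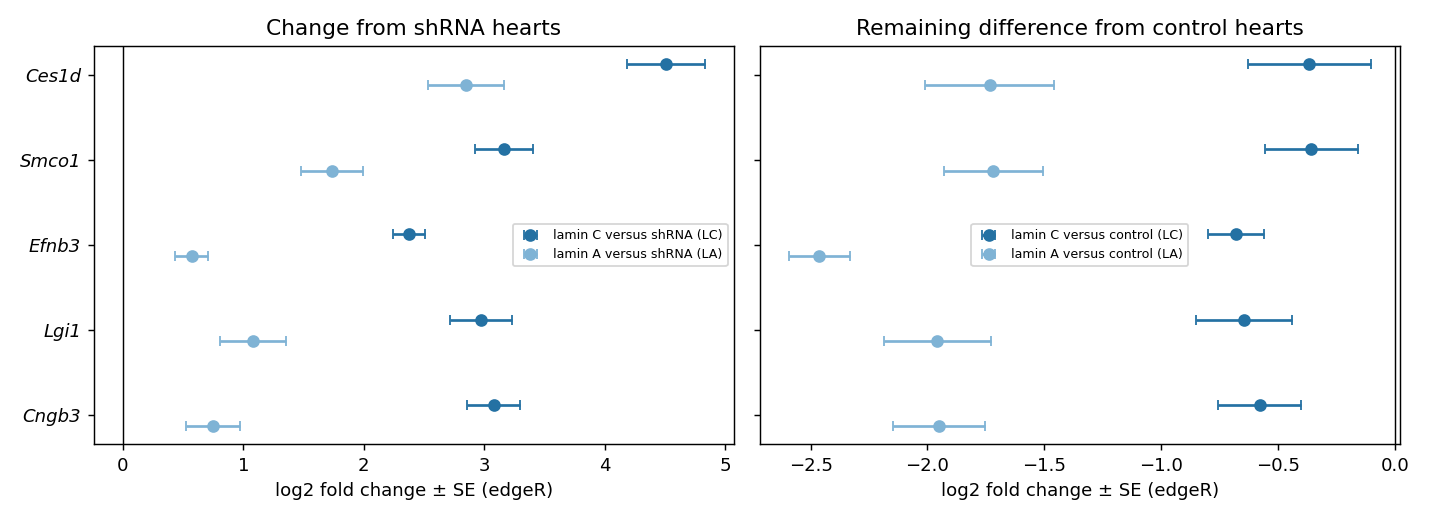
Log2 fold changes (edgeR, error bars: SE) of lamin C hearts (dark) and lamin A hearts (light), each against the shRNA hearts (left) and the controls (right) of its own batch. Against shRNA, Ces1d rises by 4.51 with lamin C and 2.85 with lamin A, and against controls Efnb3 stays lower by 0.68 with lamin C and by 2.46 with lamin A.

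Scaling matters for the size of these differences. Without TMM, by library totals alone, the median of all genes was at 0.47 (log2) for shRNA against control in batch LC and 0.48 in batch LA, against 0.05 with TMM. With totals 81.2% of called genes were higher in LC shRNA hearts, against 52.9% with TMM, and in batch LA 82.4%, against 52.7%. The corresponding shares against control were 90.8% and 58.9% for lamin C and 81.3% and 52.2% for lamin A. Against shRNA they were 20.2% and 47.5% for lamin C and 17.1% and 54.1% for lamin A, and for the difference between the lamins 25.2% and 47.2%. All 5 genes were below control in both batches under both scalings. By library totals the log2 falls in batch LA were -4.145 for Ces1d, -3.02 for Smco1 and -2.60 for Efnb3. Those of Lgi1 and Cngb3 were -2.60 and -2.265. With TMM the 5 falls in that batch were -4.59, -3.45, -3.03, -3.04 and -2.70, in the same order. Mitochondrially encoded genes took 25.19% to 27.02% of counts in controls and 12.96% to 15.62% in shRNA hearts, against 23.19% to 24.78% with lamin C and 20.31% to 22.58% with lamin A.

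Cardiomyocyte markers moved in the same order of groups as the 5 genes. Their summed level was 78500 to 82500 CPM in LC controls, 29500 to 35300 in LC shRNA hearts and 64900 to 67600 with lamin C. In batch LA it was 76700 to 78600 CPM in controls, 32300 to 33200 with shRNA and 47300 to 50700 with lamin A. All 10 markers were called lower with shRNA in each batch by edgeR with TMM. By library totals 7 were lower and 0 higher in batch LC, and 7 lower and 2 higher in batch LA. With TMM, 29.6% of all genes were lower and 33.3% higher in batch LC, and 29% lower and 32.4% higher in batch LA. By library totals 13.5% of all genes were lower and 58.3% higher in batch LC, and 12.7% lower and 59.5% higher in batch LA. The counts of lists below are to be read against these shares. With TMM, the largest of these falls in batch LC, that of the troponin gene Tnni3, was -1.82 on the log2 scale. In bulk tissue, fewer cardiomyocytes and less RNA per cardiomyocyte cannot be told apart. Each of the 5 genes fell further than each of the 10 markers in batch LC, a comparison that the choice of steeply lowered genes fixes.

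Markers of other cell types of the heart, and a list of skeletal muscle genes, also differed. Of the 7 listed skeletal muscle genes, 2 reached 1 CPM in LC controls. In LC shRNA hearts, 6 of 6 macrophage markers, 5 of 6 fibroblast markers and 6 of 6 tested skeletal muscle markers were higher and 6 of 6 endothelial markers were lower by edgeR with TMM. By library totals 6 of 6 fibroblast markers were higher and 3 of 6 endothelial markers lower, with the other counts as before. Summed fibroblast markers were at 2000 to 2390 CPM in LC controls and 4440 to 4710 in LC shRNA hearts, and macrophage markers at 308 to 404 and 1010 to 1200. Endothelial markers stood at 843 to 1030 and 491 to 566 CPM, smooth muscle and pericyte markers at 1170 to 1300 and 968 to 1080, and skeletal muscle markers at 49.2 to 57 and 198 to 239.

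These lists also differed between the lamins. Macrophage markers summed to 541 to 650 CPM with lamin C, between the LC controls and shRNA hearts, and to 1030 to 1130 with lamin A, against 364 to 387 in LA controls and 1050 to 1180 in LA shRNA hearts. Fibroblast markers summed to 2320 to 2990 CPM with lamin C and 3570 to 3920 with lamin A, against 2180 to 2380 in LA controls and 4200 to 4790 in LA shRNA hearts. For the effect of lamin C minus that of lamin A, 6 of 6 macrophage and 4 of 6 fibroblast markers were called lower by edgeR, where 9.9% of all genes were, and 6 of 10 cardiomyocyte markers higher, where 8.84% were. By library totals these counts were 6, 4 and 5, where 15.4% of all genes were lower and 5.17% higher. The part of any of these cell types in the level of the 5 genes was not tested.

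Among the cell types these genes are best known from, markers of hepatocytes and adipocytes were near 0 in controls. Hepatocyte markers summed to 0.131 to 0.246 CPM in LC controls, with 0 counts of the albumin gene Alb in the controls of both batches, while Ces1d stood above 111 CPM there. Adipocyte markers summed to 0.098 to 0.982 CPM in LC controls. Cone photoreceptor markers summed to 3.01 to 3.37 CPM in LC controls, nearly all of it the channel subunit Cnga3, with Opn1mw at 0 counts in the controls of both batches and Arr3 at 1 count in all. Neuron markers, which bear on Lgi1 and Efnb3, summed to 3.16 to 4.64 CPM in LC controls and 4.72 to 6.10 CPM in LC shRNA hearts, and Schwann cell markers to 47.3 to 51.6 and 75.8 to 89.3 CPM. Of 4 tested neuron markers, 3 were higher and 1 lower with shRNA in each batch by edgeR with TMM. Of 8 Schwann cell markers, 2 were higher and 1 lower in batch LC, with a median log2 difference of 0.12, and 2 higher and 0 lower in batch LA, with a median of -0.19. By library totals 3 of the 8 were higher and 0 lower in each batch. The part of these cells in the level of Lgi1 and Efnb3 was not tested.

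Of the relatives of Ces1d, most were hardly expressed, and 4 of 18 other carboxylesterases were tested. Ces1e, which lies next to Ces1d in the same gene cluster, was lower by 2.82 ± 0.45 on the log2 scale in batch LC (edgeR adjusted p = 1.85e-05) and by 3.37 ± 0.52 in batch LA (edgeR adjusted p = 1.56e-05). Its level was low, 1.01 to 1.25 CPM in LC controls and 0.083 to 0.255 CPM in LC shRNA hearts, and reads of such close paralogs can be split between them. Ces2g was higher by 1.43 ± 0.21 in batch LC and by 1.78 ± 0.22 in batch LA. Ces5a was higher by 1.94 ± 0.63 in batch LC (edgeR adjusted p = 0.012), a call lost without LC control 2 or LC control 3 (0.0538 and 0.0516). Its level was very low, with 5 counts in all LC controls together and 29 in all LC shRNA hearts. In LC shRNA hearts 2 of the 4 were higher and 1 lower, where 33.3% and 29.6% of all genes were, with a median log2 difference of 0.46 against 0.05 over all genes.

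Genes of triacylglycerol storage and breakdown, the process in which Ces1d acts, were lower more often than higher. In batch LC, 13 of 16 were lower and 2 higher by edgeR with TMM, where 29.6% and 33.3% of all genes were, and 10 lower and 4 higher by library totals. The median log2 difference was -0.87, against 0.05 over all genes, and in batch LA 12 were lower, 2 higher, with a median of -0.83. Dgat2, which makes triacylglycerol, was lower by 2.43 ± 0.14 in batch LC (edgeR adjusted p = 2.36e-11), and Fitm2, which helps lipid droplets form, by 1.89 ± 0.10 (adjusted p = 4.33e-12). Lipoprotein lipase Lpl, which frees fatty acids from circulating lipoproteins, was lower by 1.52 ± 0.08, while the lysosomal lipase Lipa was higher by 1.02 ± 0.06 (edgeR adjusted p = 6.93e-12). With lamin C, 13 of the 16 were higher than in shRNA hearts and 2 lower (1 lower without LC shRNA library 1), and with lamin A 12 were higher and 0 lower, by edgeR with TMM. Of all genes, 25.7% and 16.1% were higher in these comparisons. Library totals gave 11 higher and 3 lower for lamin C, where 13.1% and 51.5% of all genes were. For lamin A they gave 9 higher and 2 lower, where 7.16% and 34.7% of all genes were.

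Of the other ephrins, 6 of 7 were tested, and they went in both directions. With shRNA in batch LC, 3 were lower and 1 higher by edgeR with TMM, where 29.6% and 33.3% of all genes were, and 2 lower and 3 higher by library totals, with a TMM median of 0.03 against 0.05 over all genes. Efna1 was lower by 0.81 ± 0.06 and Efnb1 by 0.77 ± 0.08 (edgeR adjusted p = 7.13e-10 and 8.08e-08). In batch LA the falls of Efna1 and Efnb1 were -0.43 ± 0.06 and -0.36 ± 0.08 with TMM and turned to 0.01 and 0.07 by library totals. Efna5 was higher by 0.67 ± 0.10 in batch LC. Efnb2, a ligand of blood vessel development, was at -0.40 ± 0.10 with TMM and 0.03 by library totals.

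Eph receptors, the partners of ephrins, were mixed. Of 10 tested, 5 were higher and 3 lower with shRNA in batch LC by edgeR with TMM, where 33.3% and 29.6% of all genes were, and 7 higher and 2 lower by library totals, with a TMM median of 0.40. The higher count was 3 without LC control 1 or LC shRNA library 2. Epha4, an A-class receptor that also binds B-class ephrins, was lower by 1.64 ± 0.13 in batch LC (edgeR adjusted p = 1.15e-09) and by 2.17 ± 0.13 in batch LA (adjusted p = 2.36e-11). It was higher than in shRNA hearts by 1.16 ± 0.13 with lamin C and by 0.63 ± 0.13 with lamin A. Ephb6 was higher with shRNA by 2.33 ± 0.26 in batch LC (edgeR adjusted p = 1.86e-07), and Ephb2 by 1.62 ± 0.28 (adjusted p = 5.95e-05). With lamin C they stood below the shRNA hearts, Ephb6 by 1.98 ± 0.25 and Ephb2 by 2.14 ± 0.29. With lamin A neither was called against shRNA with TMM. By library totals they were at -0.77 ± 0.23 and -0.63 ± 0.25 (edgeR adjusted p = 0.0117 and 0.0468), where 34.7% of all genes were lower. Ephb4, a receptor of venous endothelium, was at -0.36 ± 0.06 in batch LC with TMM and 0.07 by library totals.

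The family and partners of Lgi1 went in both directions. Of 10 genes, 4 were higher and 1 lower with shRNA in batch LC by edgeR with TMM, where 33.3% and 29.6% of all genes were, and 6 higher and 1 lower by library totals, with a TMM median of 0.35 against 0.05 over all genes. In batch LA, 3 were higher and 2 lower with TMM, and 6 higher and 1 lower by library totals. The scaffold gene Dlg4, which encodes PSD-95, was higher by 1.17 ± 0.13 (edgeR adjusted p = 1.51e-07). Lgi4, a ligand of glial cells in peripheral nerve, was higher by 0.98 ± 0.12 (adjusted p = 4.53e-07), and Lgi2 by 0.74 ± 0.21 (adjusted p = 0.00388). Adam11 was the only one called lower in batch LC, by 1.12 ± 0.17 (edgeR adjusted p = 1.18e-05), and was higher than in shRNA hearts by 1.44 ± 0.17 with lamin C and by 1.15 ± 0.17 with lamin A. The receptor genes Adam22 (log2 -0.17 ± 0.14, edgeR adjusted p = 0.3) and Adam23 (log2 0.28 ± 0.15, edgeR adjusted p = 0.116) did not pass.

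Relatives of Cngb3 include the HCN channels, which carry the pacemaker current of the heart. This list is reported here only in part and without counts, so the genes named do not stand for the family. Hcn4, the main pacemaker isoform, was lower by 1.78 ± 0.16 in batch LC (edgeR adjusted p = 8.4e-09) and Hcn2 by 1.41 ± 0.12 (adjusted p = 4.34e-09). With lamin C they were higher than in shRNA hearts, Hcn2 by 1.52 ± 0.12 and Hcn4 by 1.40 ± 0.16, and with lamin A by 0.67 ± 0.12 and 0.79 ± 0.16. Cnga3, the alpha subunit that pairs with Cngb3 in cones, was at -0.63 ± 0.21 with TMM (edgeR adjusted p = 0.0129) and at -0.21 by library totals (adjusted p = 0.394). Among the other Smco genes, which share the domain name with Smco1, Smco4 was lower by 1.09 ± 0.15 (edgeR adjusted p = 3.78e-06), and Smco2 had 19 counts in all LC controls and 0 in all LC shRNA hearts.

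**Figure D4:**
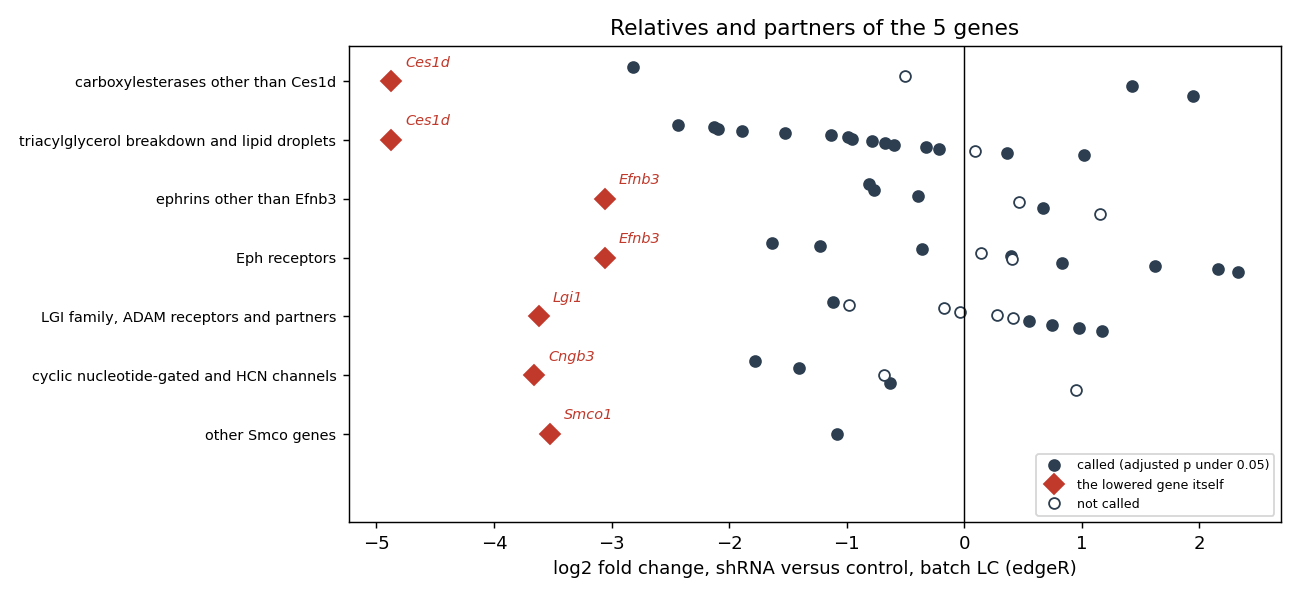
Log2 fold change of shRNA against control in batch LC for the tested relatives and partners of each gene that are reported here (filled: called by edgeR, open: not called), with the lowered gene itself as a diamond. Every diamond lies to the left of its relatives, from Efnb3 at -3.06 to Ces1d at -4.87; this position follows from how the 5 were chosen.

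Neighbouring genes on the chromosome went in both directions. The 2 nearest tested genes on each side gave 19 neighbours, leaving out Gm45909, which lies within Ces1d. With shRNA in batch LC, 6 were lower and 8 higher by edgeR with TMM, where 29.6% and 33.3% of all genes were, with a median log2 difference of -0.06. By library totals 2 were lower and 12 higher, with a median of 0.36. In batch LA 8 were lower and 7 higher with TMM, and 4 lower and 11 higher by library totals. Ces1e had the largest fall among them. On the other side of Ces1d, Mmp2, a matrix metalloproteinase, was higher by 2.13 ± 0.13 and Lpcat2 by 1.99 ± 0.21. Their midpoints lie at -342 and -295 kb from that of Ces1d. The neighbours of Smco1 (Wdr53, Fbxo45, Rnf168 and Ubxn7) stood between -0.13 and -0.06 with TMM, and between 0.29 and 0.37 by library totals. Beside Efnb3, Wrap53 was at -0.71 ± 0.14 and the tumour suppressor gene Trp53 at 0.39 ± 0.09. On its other side, Dnah2 was at -0.71 ± 0.38 (edgeR adjusted p = 0.112) and Dnah2os at -0.58 ± 0.37 (0.188). In batch LA, Dnah2 was at -1.78 ± 0.38 (edgeR adjusted p = 0.000478). Beside Lgi1, Fra10ac1 was at -0.48 ± 0.09, Slc35g1 at -0.56 ± 0.14 and the retinol carrier Rbp4 at 3.98 ± 0.56. Of the nearest tested genes to Cngb3, Rmdn1 was at -1.17 ± 0.07, Cpne3 at 0.29 ± 0.07 and Mmp16 at 1.22 ± 0.29. The midpoint of Mmp16 lies at -1410 kb from that of Cngb3, and that of A530072M11Rik, also counted, at -3180 kb. Nearest tested genes are thus not always close. Calls of Wrap53, Fra10ac1 and Slc35g1 in batch LC were lost by library totals.

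**Figure D5:**
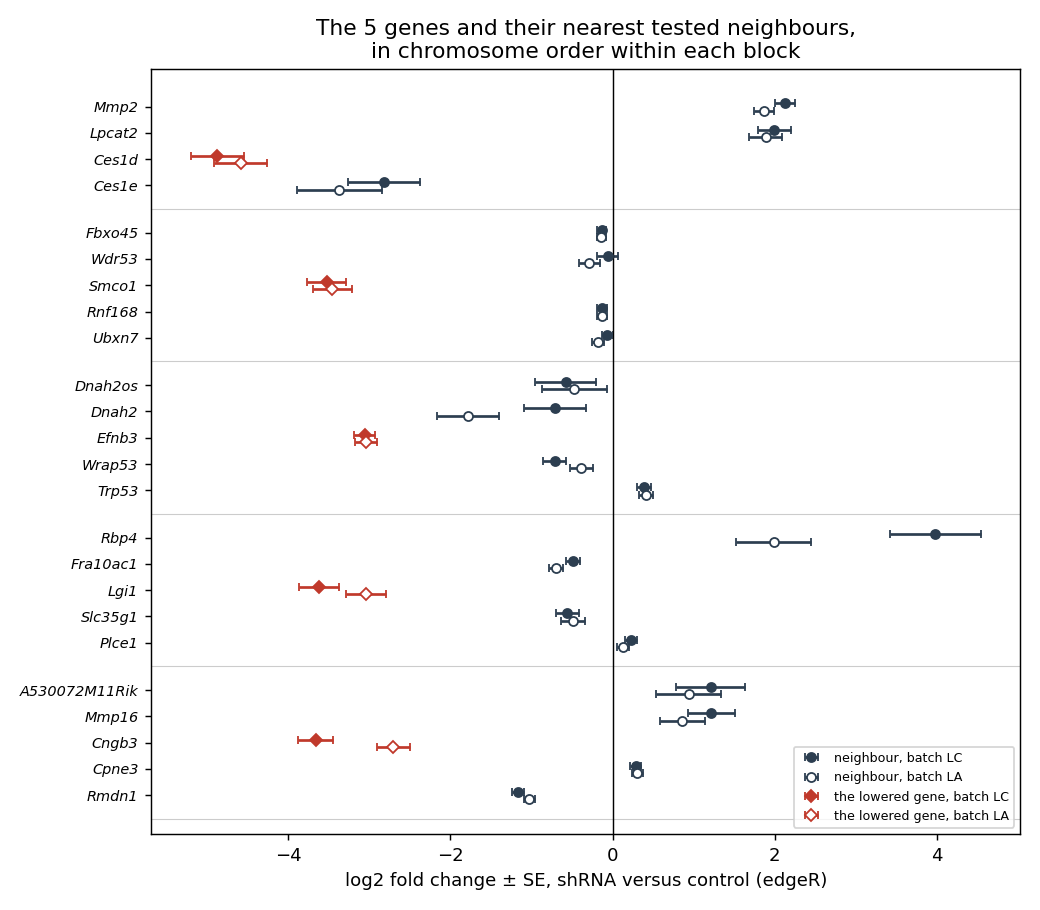
Log2 fold change (edgeR, error bars: SE) of shRNA against control in batch LC (filled) and LA (open) for each gene (diamonds) and its nearest tested neighbours (circles), in chromosome order. Beside Smco1 at -3.52 the neighbours stay within -0.13 and -0.06 in batch LC, and only Ces1e beside Ces1d falls by more than 2.

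Overlapping annotations were few. Gm45909, an unverified transcript within Ces1d on the same strand, had 38, 38 and 5 counts in LC controls, 1, 3 and 1 in LC shRNA hearts and 11, 50 and 20 with lamin C. It had 4, 6 and 4 counts in LA controls and 0 in all LA shRNA and lamin A hearts. Its reads cannot be told apart from reads of unspliced Ces1d. Lgi1 overlaps the antisense gene Gm42723, with 0 to 3 counts per library, and on its own strand the processed pseudogene AC116871.2, which was not analysed here. Cngb3 overlaps the pseudogene Gm11877, with 0 counts. Smco1 and Efnb3 overlap no other annotated gene.

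The 5 genes moved together over the 18 libraries, which follows in part from their choice in these same libraries. Pearson's r of log2 CPM ran from 0.899 for Ces1d with Efnb3 to 0.992 for Ces1d with Smco1, as a description over libraries that share the 6 groups. Each gene's most similar protein-coding genes were searched among 13098 by the same measure. For Ces1d they were Ckm, the muscle creatine kinase (r = 0.9959), Uqcc1 (0.9948) and Mb, which encodes myoglobin (0.9936). Those of Smco1 were Dhrs7c (0.9942), Rpl3l (0.9942) and Dele1 (0.9939), and those of Efnb3 were Efcab2 (0.9937), Tmem63b (0.9905) and Slc4a3 (0.9902). Lgi1 was most like Phkb (0.9912), Coq8a (0.9898) and Asb14 (0.9893), and Cngb3 most like Selenbp1 (0.9855), Tmem182 (0.9852) and Ghr (0.9837). Between 643 and 1050 genes reached r = 0.95 with each. The similar genes shared the shape, while the size of the fall varied among them. Ckm differed by -2.13 ± 0.16 in LC shRNA hearts and Mb by -1.20 ± 0.07. Rpl3l differed by -2.94 ± 0.18 there, close to Efnb3 at -3.06. In LA shRNA hearts Rpl3l was at -2.80 ± 0.18, a larger fall than that of Cngb3 at -2.70.

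The stretch before the gene start is shown for Smco1 and Lgi1, the 2 of 5 with a RefSeq promoter entry (GRCm38.p6). The Smco1 stretch is chr16:32271230-32271467 on the plus strand, with capitals for CANNTG, the E-box bound by basic helix-loop-helix factors. The Lgi1 stretch is chr19:38264437-38264535 on the plus strand, with capitals for GGGCGG, the GC box, read on the opposite strand in 3 overlapping matches.
Smco1: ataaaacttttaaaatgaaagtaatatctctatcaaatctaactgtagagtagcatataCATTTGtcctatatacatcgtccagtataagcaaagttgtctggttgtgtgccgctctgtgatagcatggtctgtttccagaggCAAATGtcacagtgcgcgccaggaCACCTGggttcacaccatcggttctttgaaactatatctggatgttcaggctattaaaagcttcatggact
Lgi1: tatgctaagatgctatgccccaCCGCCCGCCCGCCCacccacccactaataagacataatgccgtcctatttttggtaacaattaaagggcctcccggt

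In all, 8 motifs were searched on both strands of the 250 bases before the RefSeq start. CANNTG matched 3 times for Smco1, starting at -191, -107 and -83 from the start, and 1 time for Lgi1, outside the printed stretch, where 66.2% of 32851 promoters hold it. GGGCGG was found only for Lgi1, and 32.7% of promoters hold it. AAGGTCA, the half-site of estrogen-related receptors, matched 1 time for Smco1, outside the printed stretch, where 4.08% of promoters hold it. The MEF2 motif (2.92% of promoters), CATTCC (12.6%), AGATAA (9.99%), TATAAA (12.4%) and CCAAT (33.8%) matched neither. GC content of the 250 bases was 40.8% for Smco1 and 52.4% for Lgi1. A match of letters is a description only.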

How the data were processed

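Polyadenylated RNA of 18 heart apex samples was made into directional libraries, per the labels' protocols. The authors deposited counts per gene, without scaling, and FPKM values per gene. The submitters' processing notes name HISAT2 2.0.5, featureCounts 1.5.0-p3, StringTie 1.3.3b, DESeq2 1.20.0 and mm10, with no roles; strand use in counting is not stated there.

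Genes were filtered with filterByExpr (17876 kept) and tested with edgeR 4.0.16 in R 4.3.3 (TMM, quasi-likelihood F test, 6 groups in 1 fit, 12 residual degrees of freedom). Calls were made below 0.05 after Benjamini-Hochberg adjustment over every tested gene. SE came from the F statistic. Scripts were tested on simulated data. Alternatives were DESeq2 1.42.0, limma 3.58.1 on log2 FPKM, other scalings and filters, a replicate block, and leaving out each library.

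The 5 genes, their families and the marker lists were chosen with earlier results of these data known. Named were the 5, Lmna, up to 4 genes per family with the smallest p among those called in LC shRNA hearts, the 2 nearest tested genes on each side, and the 3 most correlated genes. Markers, overlapping genes and the few further genes named (Adam22, Adam23, Smco2) were chosen with values in view. A gene of the channel family that this rule would name is not reported here, so no count of that family is given.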

Additional observations from a re-analysis of the deposited data

How the results depend on the processing

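With lamin A against control, all 5 genes were called lower in every alternative in which they were tested. Lgi1 was not tested by limma on FPKM, since it lay below the minimum of 1 FPKM. With lamin C against control the number called was 3, and it was 1 by library totals, 1 by limma on log2(FPKM + 0.1), and 5 with no filter on low counts. Leaving out 1 library at a time it ran from 1 to 2. Between the controls of the 2 batches, 0 of the 5 were called, and 1 with no filter. The cause of these differences was not tested.

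Lgi1 lost its lamin C call with the third controls left out together, an alternative added after seeing the data because their labels carry consecutive numbers (adjusted p = 0.075), and by library totals (0.0795). Cngb3 lost it by library totals (0.075), by limma on log2(FPKM + 0.1) (0.0675) and with only the compared groups fitted (0.0633). Replicate numbers do not pair the samples: the correlation of deviations of same-numbered libraries over 18 pairs ran from -0.046 to 0.062. With the replicate block, 2 of the 5 were called for lamin C against control, and Lgi1 had an adjusted p of 0.0619. The block could not be fitted for controls between batches, since numbers are nested in batch.

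Over all genes, the 19 calls between controls became 192 by DESeq2, 647 with no filter, 640 without the third controls, 5 by limma on log2(FPKM + 0.1), 0 on log2(FPKM + 1) and 0 with only the compared groups, and 0 to 829 leaving out 1 library. The 1 call for the batch difference of the shRNA effect became 8 by DESeq2, 247 with no filter, 24 without the third controls, 0 with only the compared groups and 0 with the replicate block, and 0 to 47 leaving out 1 library. The 2690 calls for lamin C against control became 1507 without lamin C library 1 and 1752 without library 3.

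The same alternatives were applied to families and neighbours after seeing the data. For shRNA against control in batch LC, limma on FPKM, which tests fewer genes, called 2 rather than 5 Eph receptors higher and 2 rather than 4 of the Lgi1 family and partners. The ephrins called higher were 2 rather than 1 without LC control 3 or LC shRNA library 3, and the carboxylesterases called lower 2 rather than 1 without LC shRNA library 2. The calls of Fbxo45, Plce1 and A530072M11Rik were lost on leaving out 1 library. By library totals some named genes changed sign. For shRNA against control in batch LC, Efnb2 was at 0.028, Ephb4 at 0.066, Fbxo45 at 0.29, Rnf168 at 0.30, Ubxn7 at 0.36 and Wdr53 at 0.37. In batch LA, Efna1 was at 0.013, Efnb1 at 0.074, Efnb2 at 0.20, Ephb4 at 0.13, Fbxo45 at 0.30, Rnf168 at 0.31, Ubxn7 at 0.26 and Wrap53 at 0.055. For lamin C against shRNA, Ephb4 was at -0.006, Fbxo45 at -0.10, Rnf168 at -0.21 and Ubxn7 at -0.22. The genes most like each of the 5 by 6 group means shared 0 of 3 with those by 18 libraries, except for Smco1, which shared 2. On log2(FPKM + 1) the LC shRNA difference of Cngb3 was -1.30, since a pseudocount shrinks low genes.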
